A study of Mus musculus with 12 samples.

Results

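The genes of the proteasome were examined in mouse liver. They were taken as every gene of the count table whose symbol begins with Psm, goes on with a letter from a to g and ends in a number, which gave 48 of the 24411 genes listed. Poly(A) RNA of whole liver from 9 mice was analyzed, 3 of each of 3 genotypes, at 3 months of age. All mice carry the floxed Atg7 allele on both chromosomes, the controls included. The cont. mice (Atg7flox/flox) have no Cre. The Atg7-KO mice (Atg7flox/flox with Alb-Cre) lose Atg7, an enzyme needed to form autophagosomes, in cells that express Cre from the albumin promoter, that is, in hepatocytes, whereas other liver cells keep it. The Atg7-KO;p62T352A mice are Atg7-KO mice in which both copies of the endogenous p62 gene also carry T352A in every cell, so that p62, an autophagy receptor and an autophagy substrate, no longer brings KEAP1 into p62 bodies. The knock-in line came from mouse embryonic stem cells changed by prime editing, and the mice have a C57BL/6 background. The labels give no sex. Mice with T352A but without Cre were not analysed here, so the 3 genotypes do not separate the effect of T352A alone from its effect in livers without Atg7.

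The proteasome is the large protease that degrades proteins tagged with ubiquitin, the other main route of protein breakdown beside autophagy. Its 20S core is a barrel of alpha subunits (Psma genes) and beta subunits (Psmb genes), of which only the subunits encoded by Psmb5, Psmb6 and Psmb7 cut proteins in most cells. Where immune signals such as interferon gamma act, the inducible subunits encoded by Psmb8, Psmb9 and Psmb10 take the places of Psmb5, Psmb6 and Psmb7, and the particle is then called the immunoproteasome. The 19S cap, made of ATPases (Psmc genes) and non-ATPase subunits (most Psmd genes), binds, unfolds and feeds in ubiquitinated proteins, other activators (Psme genes) can take its place, and chaperones (Psmg genes, Psmd5, Psmd9, Psmd10) assist assembly. Genes of the constitutive subunits are known to be induced together by the transcription factor NFE2L1 when the proteasome is inhibited.

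The libraries held between 9671080 and 23285132 counts. The 20 most abundant genes took 19.7% to 27.7% of the counts in cont., 12.7% to 13.4% in Atg7-KO and from 21.8% to 25% in Atg7-KO;p62T352A mice. Levels are given as CPM, a gene's share of the library's counts on the usual fixed scale, after scaling with TMM, edgeR's method of setting most genes equal between libraries. Atg7 itself stood at 46.4, 44.2 and 55.4 CPM in cont., 10.1, 9.57 and 12.0 in Atg7-KO and 29.7, 27.4 and 29.5 in Atg7-KO;p62T352A mice, so that the mice of both genotypes with Cre lay below all cont. mice but Atg7 RNA was 2.73-fold higher in Atg7-KO;p62T352A than in Atg7-KO (edgeR's quasi-likelihood test with Benjamini-Hochberg adjustment, adjusted p = 0.000164). None of 8 hepatocyte markers was at 0 in a genotype, and their summed level was 82044 to 137759 CPM in cont., 36638 to 38947 in Atg7-KO and from 113963 to 131899 in Atg7-KO;p62T352A mice. The mouse numbered 1 of each genotype had at most 1.35 CPM of Xist, the RNA that marks an inactive X chromosome, whereas the other mice had between 373 and 2015. Whether mice within a genotype are littermates is not given, so p-values measure the spread between these mice.

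Of the 48 proteasome genes, 47 passed the filter on low counts and were tested among 13922 genes. Psmb11, the subunit of the thymus proteasome, did not pass it, with 0 to 4 counts in a liver. A gene was called when its adjusted p was under 0.05 and its fold change over 1.5, and values of 3 mice are given in the order of the mouse numbers.

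The first question was whether proteasome genes changed in livers without hepatocyte Atg7, in which ubiquitinated proteins and p62 accumulate. As a group they did not move one way. Between Atg7-KO and cont., 7 of 47 members (14.9%) were called higher, where 21.6% of all tested genes were, and 2 (4.26%) were called lower, where 22.1% of all tested genes were. In either direction these made 9 of 47, beside 43.7% of all tested genes. Over the members the log2 fold change had a median of -0.02, beside -0.03 over all tested genes, and single values ran from -0.98 to 1.43. Called higher were the inducible subunits Psmb8 and Psmb9, the activator subunit Psme1, the regulator Psmf1, the 19S subunit Psmd8 and the 19S chaperones Psmd5 and Psmd10, whereas Psmd1, the largest 19S subunit, and Psmb6, a catalytic subunit, were called lower. With library totals in place of TMM, 17 members were called higher and 0 lower, with a median of 0.57, but the median of all tested genes then also shifted, to 0.55. Changes below are therefore relative to most other genes of the liver. In raw counts, the 48 genes took 0.318% to 0.339% of all counts in cont., 0.48% to 0.5% in Atg7-KO and from 0.355% to 0.45% in Atg7-KO;p62T352A mice.

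**Figure D1:**
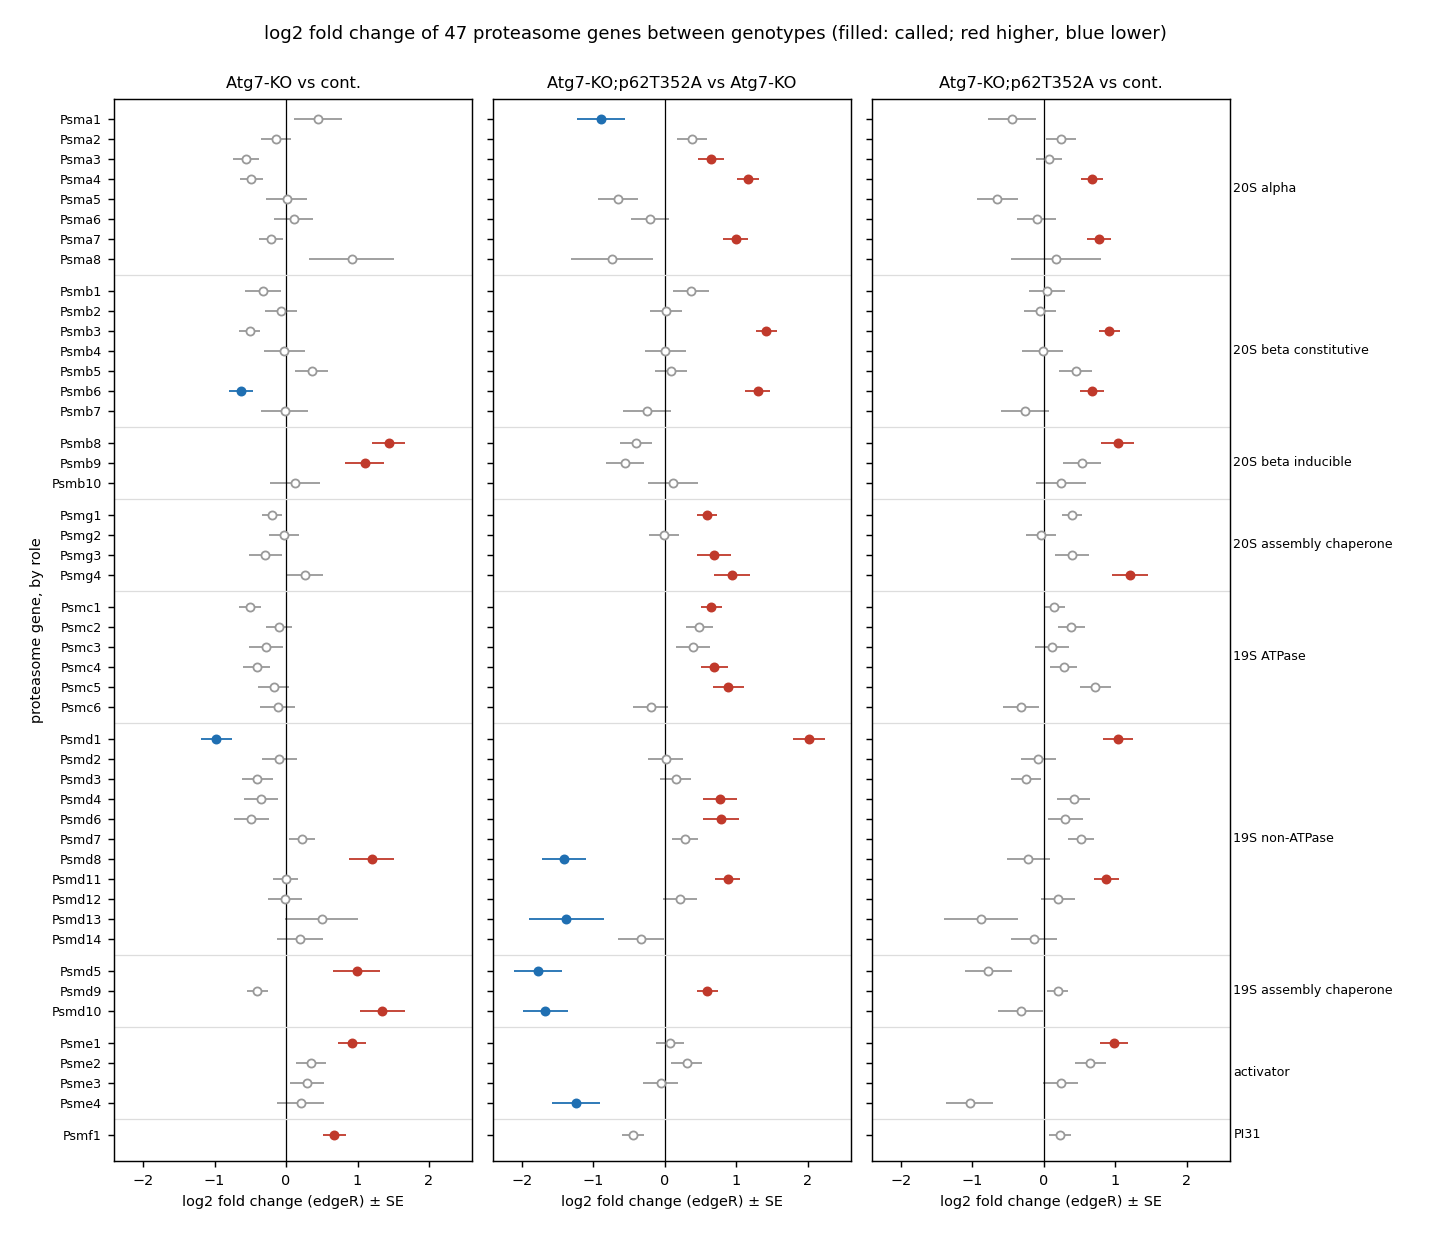
Each point is the log2 fold change of 1 of 47 proteasome genes with its standard error (horizontal line) from edgeR, with 3 mice per genotype, in the 3 comparisons named above the panels. Filled red points were called higher (7, 16 and 9 genes from left to right), filled blue points lower (2, 6 and 0), open grey points were not called, and in the left panel all 6 ATPase genes lie below 0, the 4 activator and 3 inducible genes above it, and the alpha genes on both sides.

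The inducible catalytic subunits were examined next. In GRCm38, Psmb8 lies at chr17:34197721-34201454 (plus strand) and Psmb9 beside it at chr17:34181987-34187764 (minus strand), where it overlaps Tap1 on the other strand. Psmb8, which replaces Psmb5, stood at 26.1, 34.7 and 43.1 CPM in cont., 84.0, 92.4 and 104 CPM in Atg7-KO and 55.4, 73.6 and 82.8 CPM in Atg7-KO;p62T352A mice. The Atg7-KO mice lay above all others, and the groups did not overlap. Psmb8 was 2.70-fold higher in the Atg7-KO mice than in cont. (log2 fold change 1.43 ± 0.23 SE, adjusted p = 0.00101), the largest rise among the members. Psmb9, which replaces Psmb6, stood at 13.2, 17.0 and 27.0 CPM in cont., 36.4, 41.3 and 44.4 CPM in Atg7-KO and 21.1, 31.6 and 29.9 CPM in Atg7-KO;p62T352A mice. It rose 2.14-fold in Atg7-KO (log2 fold change 1.10 ± 0.27, adjusted p = 0.00894), and its Atg7-KO mice again lay above all mice of both other genotypes. Both calls were kept in the 9 fits that each left out 1 mouse. Psmb10, which replaces Psmb7, behaved otherwise. It stood at 28.1, 55.9 and 76.9 CPM in cont., 52.5, 58.3 and 64.7 CPM in Atg7-KO and 41.0, 77.3 and 71.0 CPM in Atg7-KO;p62T352A mice, so that the genotypes overlapped and cont. mice alone spanned the range of the Atg7-KO mice (log2 fold change 0.13 ± 0.35, adjusted p = 0.784).

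Their constitutive counterparts did not rise with them. Psmb5, the chymotrypsin-like subunit, stood at 91.4, 67.1 and 88.3 CPM in cont., 106, 102 and 108 CPM in Atg7-KO and 97.3, 152 and 86.8 CPM in Atg7-KO;p62T352A mice. The Atg7-KO mice lay just above all cont. mice, but the change was not called (log2 fold change 0.36 ± 0.23, adjusted p = 0.225), and 40% of the 75-base stretches of its transcripts also occur in other genes, among them Gm3375, so its counts are less certain. Psmb6, the caspase-like subunit, stood at 135, 152 and 158 CPM in cont., 96.0, 92.5 and 100.3 CPM in Atg7-KO and 219, 276 and 213 CPM in Atg7-KO;p62T352A mice. The 3 genotypes did not overlap, with Atg7-KO lowest and Atg7-KO;p62T352A highest. It was 1.54-fold lower in the Atg7-KO mice than in cont. (log2 fold change -0.62 ± 0.17, adjusted p = 0.0133), a call near the fold threshold that was lost without cont. mouse 3 (log2 fold change -0.58), without Atg7-KO mouse 1 (adjusted p = 0.0547), without Atg7-KO mouse 2 (adjusted p = 0.0628) and with library totals (log2 fold change -0.07). It was also lost under upper-quartile scaling, with at least 10 counts in every mouse and with the offsets for length or GC content, where the log2 fold change lay between -0.58 and -0.51, and with glmTreat, which tests the fold threshold itself (adjusted p = 0.379). Psmb7, the trypsin-like subunit, stood at 188, 98.2 and 88.0 CPM in cont., 126, 122 and 123 CPM in Atg7-KO and 75.8, 151 and 84.5 CPM in Atg7-KO;p62T352A mice. Cont. mouse 1 and Atg7-KO;p62T352A mouse 2 were high, the genotypes overlapped, and the log2 fold change of Atg7-KO against cont. was -0.02 ± 0.33 (adjusted p = 0.964).

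**Figure D2:**
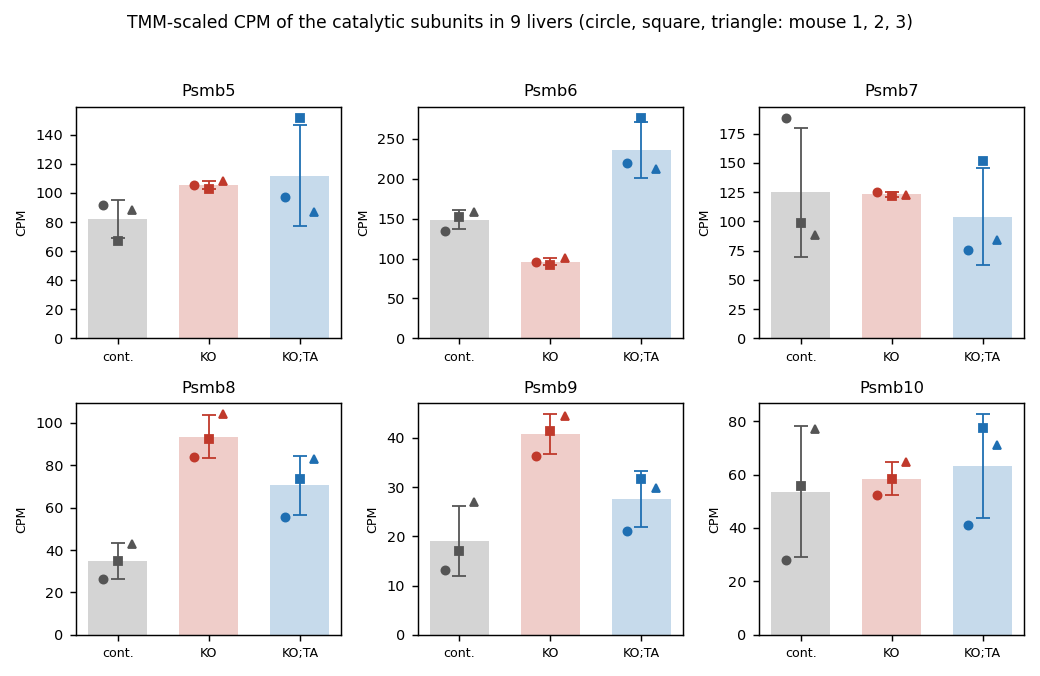
TMM-scaled CPM of the 3 constitutive catalytic subunits (top row) and of the inducible subunits that replace them (bottom row) in cont., Atg7-KO (KO) and Atg7-KO;p62T352A (KO;TA) livers. Bars are means of 3 mice with their SD, markers are single mice, and the KO mice lie above all others for Psmb8 (84.0 to 104 CPM) and Psmb9 (36.4 to 44.4 CPM) but not for Psmb10.

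The ratio of an inducible to a constitutive subunit within a library does not depend on the scaling of libraries. The count ratio of Psmb9 to Psmb6 was 0.0975, 0.112 and 0.171 in cont., 0.379, 0.447 and 0.443 in Atg7-KO and 0.096, 0.114 and 0.141 in Atg7-KO;p62T352A mice. The Atg7-KO mice thus lay above all others, whereas the Atg7-KO;p62T352A mice lay within the range of cont. or just below it, and the mean ratio was 3.33 times that of cont. in Atg7-KO and 0.923 times in Atg7-KO;p62T352A mice. Unlike the ratio, the changes of its single genes depend on the scaling, and those given next are with TMM. Against cont., Psmb9 was 2.14-fold higher and Psmb6 1.54-fold lower in Atg7-KO, but the call of Psmb6 was lost with library totals and in other fits, as given above. In Atg7-KO;p62T352A mice Psmb9 was 1.45-fold higher than in cont., which was not called, and Psmb6 1.59-fold higher, which was called. That call of Psmb6 was kept in 2 of the 9 fits without 1 mouse and was lost with library totals. The count ratio of Psmb8 to Psmb5 was 0.286, 0.517 and 0.488 in cont., 0.794, 0.902 and 0.959 in Atg7-KO and 0.570, 0.486 and 0.953 in Atg7-KO;p62T352A mice. Here Atg7-KO and cont. did not overlap, and 1 Atg7-KO;p62T352A mouse, number 3, lay among the Atg7-KO mice. The count ratio of Psmb10 to Psmb7 was 0.149, 0.569 and 0.874 in cont., 0.418, 0.479 and 0.528 in Atg7-KO and 0.541, 0.511 and 0.840 in Atg7-KO;p62T352A mice, and the cont. mice spanned all other values. No test was made of the ratios.

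**Figure D3:**
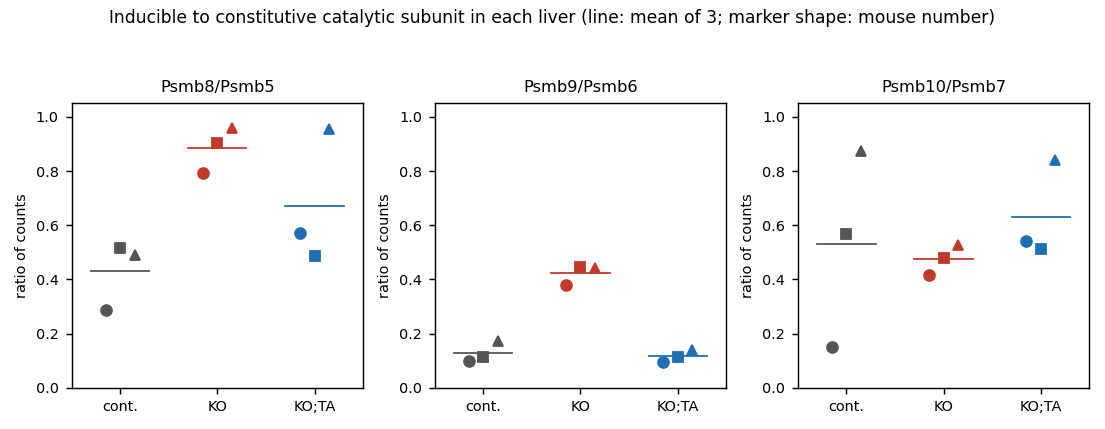
Ratio of counts of each inducible catalytic subunit to the constitutive subunit it replaces, 1 marker per mouse and a line at the mean of 3 mice, for cont., Atg7-KO (KO) and Atg7-KO;p62T352A (KO;TA) livers. Psmb9/Psmb6 lies between 0.379 and 0.447 in KO mice and at or below 0.171 in all other mice, whereas Psmb10/Psmb7 overlaps among the genotypes.

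Leukocytes express Psmb8, Psmb9 and Psmb10 also without stimulation, and in RNA of whole liver more cells of a type and more RNA per cell cannot be told apart. Of 10 macrophage and myeloid markers, 7 rose and 1 fell in the Atg7-KO mice, and their summed level ran from 297 to 435 CPM in cont., from 1115 to 1189 in Atg7-KO and from 203 to 407 in Atg7-KO;p62T352A mice. Of 8 T, B and NK cell markers, 4 were called higher in Atg7-KO, with a summed level of 7.97 to 18.8 CPM in cont., 17.9 to 24.1 in Atg7-KO and from 10.6 to 16.6 in Atg7-KO;p62T352A mice. Ptprc, the pan-leukocyte gene, had 10.6 to 17.9 CPM in cont., 49.7 to 53.0 in Atg7-KO and from 12.7 to 16.8 in Atg7-KO;p62T352A mice, and no marker of these lists was at 0 in a genotype. Of 6 stellate cell and fibroblast markers 5 were called higher, of 4 cholangiocyte markers 3, and of 5 sinusoidal endothelial markers 2 were higher and 1 lower, with summed levels in Atg7-KO of 756 to 911, 51.3 to 55.9 and 215 to 225 CPM. Hepatocyte markers moved the other way, with 7 of 8 called lower in the Atg7-KO mice. The part of these cells in the rise of Psmb8 and Psmb9 was not tested.

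Genes of MHC class I were given for comparison, among them the class I molecule itself, factors that supply it with peptides and regulators. Of 12 such genes, 4 rose in the Atg7-KO mice (Tap1, Tap2, Tapbp and H2-D1) and 0 fell, where 21.6% and 22.1% of all tested genes did, with a median log2 fold change of 0.12. Tap1 overlaps Psmb9 and shares stretches with it, as given above, so their counts may not be independent. In the Atg7-KO;p62T352A mice 3 rose and 3 fell against Atg7-KO, where 24.7% and 26.2% of all tested genes did, and 3 rose and 1 fell against cont., where 6.25% and 5.34% did. Tapbp, which encodes tapasin of the peptide-loading complex, had the highest change of the list and stood at 69.1, 72.0 and 103 CPM in cont., 188, 211 and 227 CPM in Atg7-KO and 130, 174 and 201 CPM in Atg7-KO;p62T352A mice. The cont. mice lay below all others, and Tapbp was 2.56-fold higher in Atg7-KO (log2 fold change 1.36 ± 0.23, adjusted p = 0.00134). Calr, which encodes the chaperone calreticulin, had the lowest change of the list (log2 fold change -0.63 ± 0.27, adjusted p = 0.0792), which was not called.

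The activators were led by Psme1, which encodes the alpha subunit of the interferon-inducible PA28 ring. It stood at 103, 82.2 and 128 CPM in cont., 180, 195 and 215 CPM in Atg7-KO and 206, 188 and 225 CPM in Atg7-KO;p62T352A mice. The mice of both Atg7-KO genotypes overlapped with each other and lay above all cont. mice, and Psme1 was 1.89-fold higher in the Atg7-KO mice than in cont. (log2 fold change 0.92 ± 0.20, adjusted p = 0.00459). Psme2, the beta subunit of the same ring, had a log2 fold change of 0.35 ± 0.21 (adjusted p = 0.201), and 51.7% of its 75-base stretches also occur in other genes, chiefly Psme2b. Psme3, which encodes the nuclear PA28 gamma, had 0.29 ± 0.24 (adjusted p = 0.342). Psme4, which encodes the activator PA200, had the lowest change of the activators and stood at 170, 86.7 and 58.5 CPM in cont., 118, 134 and 112 CPM in Atg7-KO and 57.4, 45.8 and 50.3 CPM in Atg7-KO;p62T352A mice. The cont. mice spanned the Atg7-KO mice (log2 fold change 0.21 ± 0.33, adjusted p = 0.626), while the Atg7-KO;p62T352A mice lay lowest. Psmf1, which encodes the proteasome regulator PI31, stood at 30.9, 34.4 and 38.7 CPM in cont., 51.5, 56.8 and 57.9 CPM in Atg7-KO and 44.8, 39.5 and 37.3 CPM in Atg7-KO;p62T352A mice. Only the Atg7-KO mice stood apart, and Psmf1 was 1.60-fold higher in them than in cont. (log2 fold change 0.68 ± 0.16, adjusted p = 0.00656). With an offset for GC content the log2 fold change was 0.58 and under the fold threshold, and with glmTreat the adjusted p was 0.261.

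Among the non-catalytic genes of the 20S core, none of the 8 alpha genes was called in Atg7-KO, where 43.7% of all tested genes were in either direction. Psma3 had the lowest log2 fold change of them and stood at 186, 143 and 163 CPM in cont., 114, 112 and 107 CPM in Atg7-KO and 160, 208 and 152 CPM in Atg7-KO;p62T352A mice. The Atg7-KO mice lay below all others, with an adjusted p of 0.0294 by edgeR's quasi-likelihood test, but the change was under 1.5-fold (log2 fold change -0.56 ± 0.18), and it was 0.02 with library totals. Psma4, Psmb3 and the ATPase gene Psmc1 were likewise lower at an adjusted p under 0.05 but by less than 1.5-fold, which with Psmb6 and Psmd1 made 6 lower by p alone (23.7% of all tested genes were) beside 7 higher (22.3%). Psma8, the testis subunit, had the highest log2 fold change of the alpha genes (0.92 ± 0.59, adjusted p = 0.228) on levels of 1.15, 0.662 and 0.11 CPM in cont., 1.21, 0.781 and 1.96 CPM in Atg7-KO and 1.07, 0.56 and 0.718 CPM in Atg7-KO;p62T352A mice. These levels overlapped between genotypes and rest on few counts. Over all members, the 3 mice of Atg7-KO lay above the 3 of cont. for 8 genes (17.0%, where 29.2% of all tested genes did) and below them for 13 (27.7%, where 26.3% did).

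Of the 11 non-ATPase genes of the 19S cap, 1 was called higher and 1 lower in the Atg7-KO mice, where 21.6% and 22.1% of all tested genes were. Psmd1, which encodes the scaffold subunit RPN2 and lies at chr1:86064387-86139151 (plus strand), stood at 136, 203 and 240 CPM in cont., 98.1, 95.2 and 101 CPM in Atg7-KO and 390, 389 and 410 CPM in Atg7-KO;p62T352A mice. No genotype overlapped another, and the 3 mice of each Atg7-KO genotype lay close together. It was 1.97-fold lower in the Atg7-KO mice than in cont. (log2 fold change -0.98 ± 0.21, adjusted p = 0.0051), a call that was kept in the 9 fits without 1 mouse but not with library totals, where the log2 fold change was -0.44. Psmd8, which encodes RPN12 of the lid and lies at chr7:29174188-29180701 (minus strand), stood at 154, 80.7 and 62.2 CPM in cont., 244, 212 and 226 CPM in Atg7-KO and 78.9, 102 and 74.4 CPM in Atg7-KO;p62T352A mice. Its Atg7-KO mice lay above all others, and Psmd8 was 2.29-fold higher in them than in cont. (log2 fold change 1.20 ± 0.31, adjusted p = 0.0112). Without cont. mouse 2 the adjusted p was 0.0756.

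Of the ATPase genes, all 6 had log2 fold changes below 0 between Atg7-KO and cont., and none was called, where 43.7% of all tested genes were in either direction. With library totals, these changes lay above 0 for those examined, Psmc1, Psmc2, Psmc4 and Psmc5. Psmc2 had the highest log2 fold change of them and stood at 99.8, 84.9 and 81.4 CPM in cont., 79.2, 85.0 and 84.6 CPM in Atg7-KO and 97.3, 144 and 105 CPM in Atg7-KO;p62T352A mice, with overlap between cont. and Atg7-KO (log2 fold change -0.10 ± 0.19, adjusted p = 0.690). Psmc1 had the lowest and stood at 127, 113 and 118 CPM in cont., 85.6, 86.4 and 80.9 CPM in Atg7-KO and 122, 146 and 128 CPM in Atg7-KO;p62T352A mice. The Atg7-KO mice were below all others, at a log2 fold change of -0.50 ± 0.15 (adjusted p = 0.0222).

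Of the 3 chaperones that help to build the base of the 19S cap, 2 were called higher and 0 lower. Psmd10, which encodes the oncoprotein gankyrin and lies at chrX:140948429-140956728 (minus strand), stood at 14.4, 7.75 and 5.94 CPM in cont., 24.9, 25.1 and 22.5 CPM in Atg7-KO and 6.36, 9.88 and 6.46 CPM in Atg7-KO;p62T352A mice. The Atg7-KO mice lay above all others, and Psmd10 was 2.54-fold higher in them than in cont. (log2 fold change 1.35 ± 0.31, adjusted p = 0.00691), a call that was kept in the 9 fits without 1 mouse. Psmd5, which encodes the chaperone S5b, stood at 48.3, 23.8 and 16.3 CPM in cont., 54.6, 63.6 and 58.6 CPM in Atg7-KO and 17.6, 17.4 and 16.8 CPM in Atg7-KO;p62T352A mice. Cont. mouse 1 came close to the Atg7-KO mice, which nevertheless lay above all others, and Psmd5 was 1.99-fold higher in the Atg7-KO mice than in cont. (log2 fold change 0.99 ± 0.33, adjusted p = 0.0328). This call was lost when cont. mouse 2 (adjusted p = 0.169) or 3 (0.0717), Atg7-KO mouse 1 (0.0644), 2 (0.091) or 3 (0.0764), or Atg7-KO;p62T352A mouse 2 (0.0502) or 3 (0.0508) was left out. Psmd9, which encodes the chaperone p27, had the lowest log2 fold change of the 3 and stood at 35.0, 30.4 and 30.9 CPM in cont., 24.7, 23.5 and 24.8 CPM in Atg7-KO and 34.6, 41.0 and 34.7 CPM in Atg7-KO;p62T352A mice. The Atg7-KO mice were lowest, but the change was not called (log2 fold change -0.40 ± 0.15, adjusted p = 0.0514), and on its other strand the gene overlaps Hpd, an abundant hepatocyte gene.

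**Figure D4:**
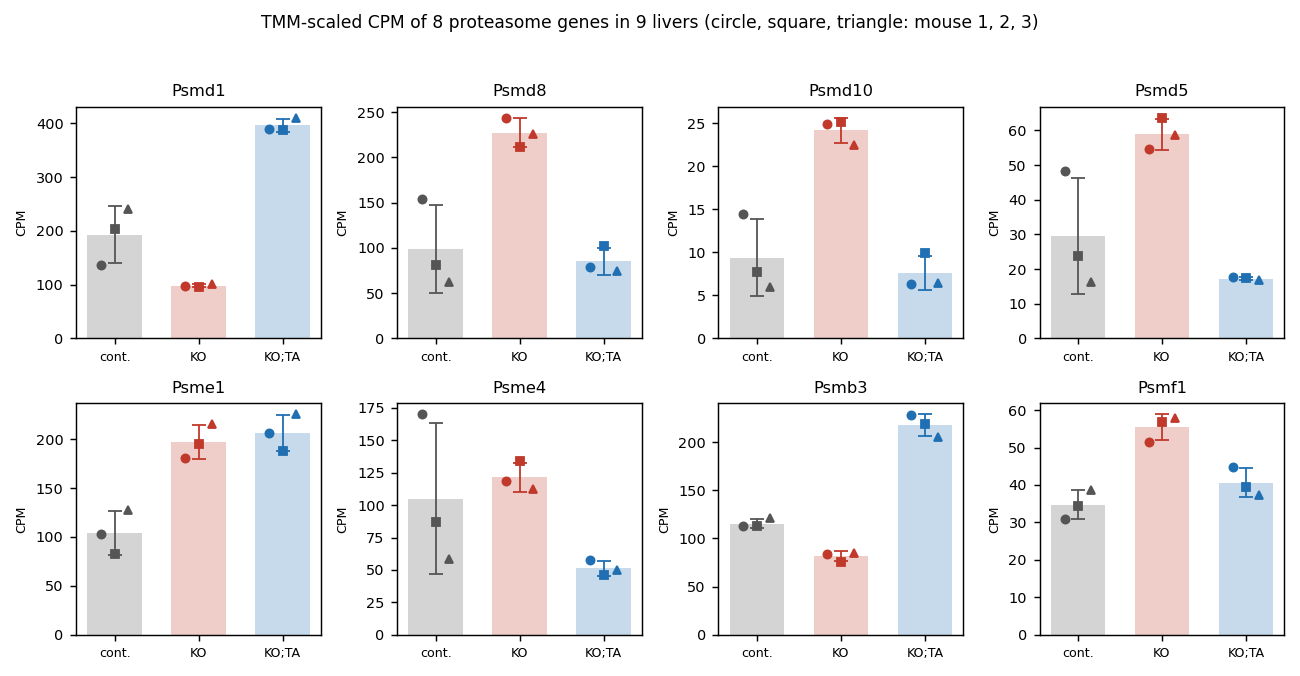
TMM-scaled CPM of Psmd1, Psmd8, Psmd10, Psmd5, Psme1, Psme4, Psmb3 and Psmf1 in cont., Atg7-KO (KO) and Atg7-KO;p62T352A (KO;TA) livers, with bars at the mean of 3 mice, error bars of 1 SD and 1 marker per mouse. The KO mice are lowest for Psmd1 and Psmb3 and highest for Psmd8, Psmd10, Psmd5 and Psmf1, and cont. mouse 1 (circle) is far above the other cont. mice for Psmd5 and Psme4.

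The chaperones of the 20S core were not called in Atg7-KO, where 43.7% of all tested genes were in either direction. Psmg4 had the highest log2 fold change of the 4 and stood at 6.93, 9.93 and 14.7 CPM in cont., 13.4, 12.1 and 12.2 CPM in Atg7-KO and 20.3, 25.9 and 26.1 CPM in Atg7-KO;p62T352A mice, with cont. and Atg7-KO overlapping (log2 fold change 0.27 ± 0.25, adjusted p = 0.416). Psmg3 had the lowest and stood at 11.6, 11.5 and 9.23 CPM in cont., 9.29, 9.20 and 8.06 CPM in Atg7-KO and 11.1, 19.6 and 11.9 CPM in Atg7-KO;p62T352A mice. These also overlapped between cont. and Atg7-KO (log2 fold change -0.29 ± 0.24, adjusted p = 0.345).

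The second comparison asked what differed when p62 could not retain KEAP1. These groups also differed in Atg7 RNA, which was higher in Atg7-KO;p62T352A, as given above, and the part of this difference in the results was not tested. In the study's immunoblots, ATG7 protein was nearly undetectable in Atg7-KO livers both with and without a p62 mutation. Between Atg7-KO;p62T352A and Atg7-KO, 16 of 47 members (34.0%) were called higher, where 24.7% of all tested genes were, and 6 (12.8%) were called lower, where 26.2% were. In either direction 22 of 47 were called, beside 51% of all tested genes. Over the members the log2 fold change had a median of 0.15, beside 0.00 for all tested genes. Higher were the 20S genes Psma3, Psma4, Psma7, Psmb3 and Psmb6, the ATPase genes Psmc1, Psmc4 and Psmc5, the non-ATPase genes Psmd1, Psmd4, Psmd6 and Psmd11 and the chaperone genes Psmd9, Psmg1, Psmg3 and Psmg4. Lower were Psma1, Psmd8, Psmd13, Psme4 and the chaperone genes Psmd5 and Psmd10. With library totals the balance turned to 4 higher and 16 lower and the median to -0.44, with that of all tested genes at -0.57. Psmd1, Psmb3, Psmb6 and Psma4 were called higher with either scaling.

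Psmd1 differed most and was 4.04-fold higher in Atg7-KO;p62T352A than in Atg7-KO (log2 fold change 2.01 ± 0.22, adjusted p = 0.00013). Psmb3, a structural beta subunit, stood at 113, 113 and 121 CPM in cont., 84.1, 75.6 and 84.6 CPM in Atg7-KO and 228, 219 and 206 CPM in Atg7-KO;p62T352A mice. The 3 genotypes did not overlap, with Atg7-KO lowest, and Psmb3 was 2.67-fold higher in Atg7-KO;p62T352A than in Atg7-KO (log2 fold change 1.42 ± 0.15, adjusted p = 0.000114), although 33.1% of its 75-base stretches also occur in other genes. Psmb6 was 2.45-fold higher (log2 fold change 1.29 ± 0.17, adjusted p = 0.000308). Psma4 stood at 141, 148 and 168 CPM in cont., 109, 109 and 109 CPM in Atg7-KO and 218, 258 and 253 CPM in Atg7-KO;p62T352A mice. Again the 3 genotypes did not overlap, and Psma4 was 2.24-fold higher in Atg7-KO;p62T352A than in Atg7-KO (log2 fold change 1.16 ± 0.16, adjusted p = 0.000365). The share of 75-base stretches that also occur in other genes was 16.7% for Psma4, 7.60% for Psmd1 and 0% for Psmb6. The calls of Psmd1, Psmb3, Psmb6 and Psma4 were kept in the 9 fits without 1 mouse. Those of Psma3, Psmc1, Psmc4, Psmd4, Psmd6, Psmd9, Psmg1 and Psmg3 were each lost when Atg7-KO;p62T352A mouse 2 was left out, and the count of members called higher was then 8. It was 10 without Atg7-KO mouse 2, and the shares of all tested genes in these fits are not given here.

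On the lower side, Psmd5 was 3.41-fold lower in Atg7-KO;p62T352A than in Atg7-KO (log2 fold change -1.77 ± 0.34, adjusted p = 0.00202), Psmd10 3.19-fold (adjusted p = 0.00197) and Psmd8 2.66-fold (adjusted p = 0.00424). Psme4 was 2.37-fold lower (log2 fold change -1.25 ± 0.33, adjusted p = 0.0112). These 4 calls were kept in the 9 fits without 1 mouse and with library totals. Those of Psmd13 (log2 fold change -1.38 ± 0.52, adjusted p = 0.0473) and Psma1 (-0.89 ± 0.34, adjusted p = 0.0465) were lost in 6 of the 9 fits, with adjusted p of up to 0.146 and 0.154, when cont. mouse 2, any Atg7-KO mouse or Atg7-KO;p62T352A mouse 1 or 3 was left out. Psmb8 and Psmb9 were not called, at log2 fold changes of -0.40 ± 0.22 (adjusted p = 0.152) and -0.56 ± 0.27 (adjusted p = 0.0986), although all their Atg7-KO;p62T352A mice lay below all Atg7-KO mice. Psme1 did not differ beyond its error (log2 fold change 0.07 ± 0.19, adjusted p = 0.784). Over all members, the groups did not overlap for 20 higher genes (42.6%, where 36.4% of all tested genes did not) and 10 lower ones (21.3%, where 36.8% did not). Leukocyte and hepatocyte markers also moved between these genotypes, with 7 of 10 macrophage and myeloid markers called lower and 2 higher and 7 of 8 hepatocyte markers called higher in Atg7-KO;p62T352A. Called lower were also 2 of 8 T, B and NK cell, 4 of 6 stellate cell and fibroblast, 2 of 4 cholangiocyte and 3 of 5 sinusoidal endothelial markers, and the part of these cells was not tested.

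The last comparison asked how livers of Atg7-KO;p62T352A mice differed from cont. Of 47 members, 9 (19.1%) were called higher in Atg7-KO;p62T352A, where 6.25% of all tested genes were, and 0 were called lower by edgeR, where 5.34% were, beside 11.6% of all tested genes in either direction. An unadjusted p under 0.05 was reached by 16 of the 47 members in either direction, where 3920 of the 13922 tested genes reached it. DESeq2 called 11 higher and 1 lower, for which the share of all tested genes is not given here. The median log2 fold change was 0.23, beside 0.00 for all tested genes, and with library totals 7 were called higher and 0 lower. The 9 were Psmg4, Psmd1, Psmb8, Psme1, Psmb3, Psmd11, Psma7, Psma4 and Psmb6, so that subunits of the core and the cap stood beside 1 core chaperone, 1 inducible subunit and 1 activator.

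Psmg4, the chaperone, had the largest change and was 2.31-fold higher than in cont. (log2 fold change 1.20 ± 0.26, adjusted p = 0.0197). Psmd1 was 2.06-fold higher (log2 fold change 1.04 ± 0.21, adjusted p = 0.0175), Psmb8 2.04-fold (1.03 ± 0.23, adjusted p = 0.0222) and Psme1 1.98-fold (0.99 ± 0.20, adjusted p = 0.0157). Psmb3 was 1.88-fold higher (log2 fold change 0.91 ± 0.15, adjusted p = 0.00911). Psmb8 and Psme1 were thus called against cont. in both Atg7-KO genotypes, which share the cont. mice, whereas Psmd1 was lower than cont. in Atg7-KO and higher in Atg7-KO;p62T352A. Psmd11, which encodes RPN6 of the lid, stood at 99.99, 94.5 and 82.9 CPM in cont., 91.7, 90.9 and 94.4 CPM in Atg7-KO and 188, 136 and 184 CPM in Atg7-KO;p62T352A mice. The last group lay above all others, at 1.83-fold the level of cont. (log2 fold change 0.87 ± 0.18, adjusted p = 0.0165). Psma7 stood at 103, 88.9 and 97.6 CPM in cont., 80.0, 84.2 and 85.0 CPM in Atg7-KO and 142, 195 and 158 CPM in Atg7-KO;p62T352A mice. Again the last group was highest without overlap (log2 fold change 0.77 ± 0.17, adjusted p = 0.0217). Psma4 and Psmb6 were 1.60- and 1.59-fold higher than in cont. (adjusted p = 0.026 and 0.0327).

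Most of these calls depended on single mice. Of the 9, Psmb3 was called in the 9 fits without 1 mouse, but not with an offset for transcript length (log2 fold change 0.50, adjusted p = 0.0717) or with glmTreat (adjusted p = 0.139). Without cont. mouse 2, 2 members were called higher, without Atg7-KO;p62T352A mouse 3 there was 1, without Atg7-KO;p62T352A mouse 2 there were 4, and without any 1 Atg7-KO mouse there were 6. With the length offset 3 were called (Psmd1, Psmb8 and Psmd11) and the median was 0.00. For none of these fits is the share of all tested genes given here. Across the 47 members, the log2 fold change had a Spearman correlation of -0.31 with transcript length and of 0.41 with GC content, beside -0.30 and 0.11 across all tested genes with a transcript length. These are descriptions over genes of the same libraries. Of the cell type markers, 3 of 5 of sinusoidal endothelium and 1 of 8 of hepatocytes were called lower against cont., and 2 of 4 of cholangiocytes, 2 of 6 of stellate cells and fibroblasts and 1 of 8 of T, B and NK cells higher. Their summed level in cont. and Atg7-KO;p62T352A mice was 220 to 294 and 124 to 153 CPM for endothelium, 8.14 to 8.98 and 31.1 to 45.8 CPM for cholangiocytes and 189 to 239 and 296 to 514 CPM for stellate cells and fibroblasts, and their part in these results was not tested. Of 10 macrophage and myeloid markers 0 were called in either direction against cont., and Ptprc was not called (log2 fold change -0.006).

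The mice of a genotype also differed from each other over the members as a whole. The 31 core subunits (the constitutive 20S and 19S genes other than Psma8) were compared in each mouse with the mean of the other 2 mice of its genotype, in log2 CPM. In cont. mouse 1, 24 of 31 were higher, with a median difference of 0.45, where that of all tested genes was -0.03. In Atg7-KO;p62T352A mouse 2, 28 of 31 were higher, with a median difference of 0.52, beside -0.03 for all tested genes. The 3 Atg7-KO mice differed little, with medians from -0.01 to 0.03. Without the mouse numbered 1 of every genotype, those low in Xist, 11 members rose and 2 fell in Atg7-KO, 16 and 6 did so between Atg7-KO;p62T352A and Atg7-KO, and 13 and 0 between Atg7-KO;p62T352A and cont. The shares of all tested genes called in this fit are not given here, so these counts are not a result about the members alone.

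**Figure D5:**
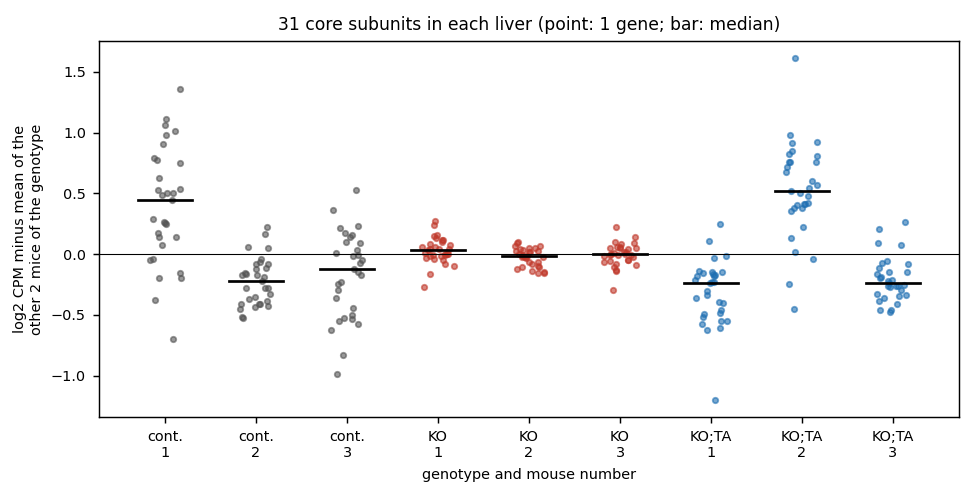
Difference in log2 CPM of 31 core subunits (1 point each) between a mouse and the mean of the other 2 mice of its genotype, with the median as a bar, for cont., Atg7-KO (KO) and Atg7-KO;p62T352A (KO;TA) mice. Cont. mouse 1 and KO;TA mouse 2 lie above 0 for 24 and 28 of 31 genes, whereas the KO mice scatter closely around 0.

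Levels between genes were compared per length, as mean CPM per kilobase of the median protein-coding transcript. In cont. the 14 constitutive 20S genes without Psma8 had a median of 93.8 CPM per kilobase, from 29.4 for Psma2 to 186 for Psmb6, although the subunits occur in equal numbers in the particle. The low value of Psma2 rests on its length of 2911 bases, since its mean of 85.7 CPM was near that of Psma6 (86.5 CPM, 914.5 bases). The 6 ATPase genes had a median of 59.6 and the 11 non-ATPase genes one of 41.3 CPM per kilobase. The inducible genes had 14.1 (Psmb9) to 40.9 (Psmb10) CPM per kilobase in cont., and in Atg7-KO 30.1 (Psmb9) to 57.4 (Psmb8). The 20S chaperones had a median of 16.9 and those of the 19S base one of 6.70 CPM per kilobase. Psme1 had the highest level of an activator gene in all 3 genotypes, at 147, 277 and 290 CPM per kilobase in cont., Atg7-KO and Atg7-KO;p62T352A mice, and Psme4 the lowest, at 16.2, 18.7 and 7.89.

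Genes that work with the proteasome without being named Psm were taken as a list of receptors, shuttles, deubiquitinases, maturation factors, ubiquitin genes and transcription regulators, of which 25 were tested. In Atg7-KO against cont., 4 rose (Ubqln2, Zfand2a, Fbxo7 and Nub1) and 2 fell (Ddi2 and Shfm1), where 21.6% and 22.1% of all tested genes did, with a median log2 fold change of 0.04. Between Atg7-KO;p62T352A and Atg7-KO, 2 rose and 6 fell, where 24.7% and 26.2% of all tested genes did, and against cont. edgeR called 0 higher and 2 lower, where 6.25% and 5.34% were. Ubqln2, a shuttle for ubiquitinated proteins, stood at 27.2, 10.9 and 11.1 CPM in cont., 60.1, 57.4 and 70.6 CPM in Atg7-KO and 6.21, 12.2 and 7.64 CPM in Atg7-KO;p62T352A mice. Highest were the Atg7-KO mice, without overlap, and Ubqln2 was 3.79-fold higher in them than in cont. (log2 fold change 1.92 ± 0.38, adjusted p = 0.00304). Ddi2, the protease that activates NFE2L1, stood at 106, 98.4 and 78.6 CPM in cont., 38.5, 44.3 and 41.9 CPM in Atg7-KO and 19.3, 7.01 and 6.20 CPM in Atg7-KO;p62T352A mice. The 3 genotypes did not overlap and fell in this order. Ddi2 was 2.27-fold lower in the Atg7-KO mice than in cont. (adjusted p = 0.0267), a call lost without cont. mouse 2 or without any 1 Atg7-KO mouse (adjusted p up to 0.0848) and with library totals, and 8.71-fold lower in Atg7-KO;p62T352A than in cont. (log2 fold change -3.12 ± 0.40, adjusted p = 0.00494).

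Nfe2l1 itself, the transcription factor of the constitutive subunits, stood at 95.01, 136 and 82.5 CPM in cont., 83.6, 95.8 and 97.1 CPM in Atg7-KO and 112, 110 and 136 CPM in Atg7-KO;p62T352A mice. Cont. overlapped with both other genotypes (log2 fold change of Atg7-KO against cont. -0.18 ± 0.21, adjusted p = 0.505). The Atg7-KO;p62T352A mice lay above the Atg7-KO mice, a difference that was not called (log2 fold change 0.37 ± 0.21, adjusted p = 0.160). Pomp, the maturation factor of the 20S core, had 128, 80.8 and 107 CPM in cont., 104, 99.4 and 104 CPM in Atg7-KO and 71.4, 176 and 90.8 CPM in Atg7-KO;p62T352A mice. Mouse 2 of the last group was again the highest, and Atg7-KO did not differ from cont. beyond the error (log2 fold change -0.04 ± 0.31, adjusted p = 0.933). Adrm1, which encodes the ubiquitin receptor RPN13, had 92.3, 87.8 and 94.95 CPM in cont., 66.7, 64.3 and 73.4 CPM in Atg7-KO and 89.9, 159 and 96.0 CPM in Atg7-KO;p62T352A mice. The Atg7-KO mice lay below all others. Adrm1 was not called between Atg7-KO and cont. (log2 fold change -0.43 ± 0.22, adjusted p = 0.141) but was 1.69-fold higher in Atg7-KO;p62T352A than in Atg7-KO (adjusted p = 0.0174), a call lost without Atg7-KO;p62T352A mouse 2 (log2 fold change 0.45), Atg7-KO mouse 1 (adjusted p = 0.0602) or Atg7-KO mouse 2 (0.0683), with library totals (log2 fold change 0.16), with the offsets for length (0.58) or GC content (0.41) and with glmTreat.

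Promoter sequence was read for the members because NRF2, which KEAP1 holds back, and NFE2L1 bind the antioxidant response element. RefSeq windows of GRCm38.p6, each from 250 bases before to 50 bases after a gene's start, were found for 40 members. The core letters TGACNNNGC, searched on both strands, occurred in 6 members (15%) and in 14% of all 27025 gene symbols with a window (12.4% of the 32851 windows). They are shown here with up to 10 bases on each side and the match in capitals, 5′ to 3′ on the strand of the gene, in the order of the log2 fold change between Atg7-KO and cont.
Psmb5: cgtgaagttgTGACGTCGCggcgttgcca
Psme4: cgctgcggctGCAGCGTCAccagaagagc
Psmd12: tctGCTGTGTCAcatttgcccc
Psmc6: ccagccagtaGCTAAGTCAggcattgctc
Psmd9: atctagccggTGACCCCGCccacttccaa
Psmb6: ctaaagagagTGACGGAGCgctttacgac
They lie at chr14:54618024-54618052 (minus strand) for Psmb5, chr11:30771758-30771786 (plus) for Psme4, chr11:107479278-107479299 (plus) for Psmd12, chr14:45329587-45329615 (plus) for Psmc6, chr5:123228149-123228177 (plus) for Psmd9 and chr11:70525338-70525366 (plus) for Psmb6. None of the 6 genes was called higher in Atg7-KO, and Psmb6 was called lower. Psmb5, Psmd9 and Psmb6 hold the letters as written, and the other 3 hold them on the opposite strand. The core of the interferon-stimulated response element, searched on both strands as the letters GAAA and GAAA with any 2 bases between them, was chosen after values were seen and occurred in 5 members (12.5%) and in 3.99% of all symbols with a window. Of these members, Psme1 was called higher in Atg7-KO, and Psmg4, Psmd4, Psmd9 and Psmb3 were not called there. Psmg4 had a log2 fold change above 0 (0.27), whereas Psmd4 (-0.35), Psmd9 (-0.40) and Psmb3 (-0.50) lay below 0. The inducible genes Psmb8, Psmb9 and Psmb10 were not among the 5, and whether each had a window is not given here. Of the 5 members, only the stretch of Psme1 is shown. The stretch of Psme1 lies at chr14:55578493-55578522 (plus strand) and holds this core on the opposite strand.
Psme1: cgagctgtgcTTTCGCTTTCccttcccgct
A match of letters is not evidence of binding.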

How the data were processed

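RNA of whole liver was sequenced by the study after poly(A) selection. The deposited values are expected counts of genes, estimated by the authors from mapped reads. The submitters' processing notes name Trim Galore, STAR, RSEM and the mm10 build, while versions, gene annotation and strand setting are not given in the sources used here, so that reads of overlapping genes on opposite strands may not be told apart. All 9 sample columns were used, and 0 were left unused. Groups came from the labels.

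Expected counts were rounded to whole numbers, filtered with filterByExpr and scaled with TMM, and 1 quasi-likelihood model was fitted to all 9 mice with edgeR 4.0.16 (limma 3.58.1, R 4.3.3). P-values were adjusted by Benjamini-Hochberg over all 13922 genes tested, and a gene was called at an adjusted p under 0.05 and a fold change over 1.5. Standard errors came from the quasi-likelihood F statistic. On simulated counts for Atg7-KO against cont., 95.5% of 199 genes changed 4-fold were recovered and 15 of 13501 unchanged genes were called. The simulation gave every gene the same spread between mice (dispersion 0.08) and changed few genes, whereas in the data 43.7% were called. These rates therefore do not carry over to changes under 4-fold or to so broad a change. Counting error was not compared with the spread between mice. It weighs more for genes with few counts, such as Psma8 with 1 to 46 counts in a liver.

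The members, gene lists and tests were chosen with earlier results of these data known, and 1 gene of the MHC class I list and 1 motif search are not reported here. Named with values in every mouse were, for each role, the members with the highest and lowest change in Atg7-KO, the 6 catalytic subunits, the members called between Atg7-KO;p62T352A and cont., and the partners at both ends of their list with Nfe2l1, Pomp and Adrm1. Psmd11, Psmb3 and other genes called in this last comparison were described there, and the promoter matches of Psmd9 and Psmb6 and the search for the interferon-stimulated response element were added after values were seen. Alternatives were DESeq2 1.42.0, other scalings and count filters, offsets for length and GC content, glmTreat, a replicate block and leaving out mice. Scaling by library totals and the GC offset were added after seeing the data. Lengths, positions and shared 75-base stretches came from the GENCODE annotation of GRCm38, and promoter windows from RefSeq (GRCm38.p6). Shared stretches also made 21.3% for Psma3, 24.1% for Psmb7, 12.6% for Psmd11, 14.0% for Psmd13 and 20.3% for Psmg3.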

Additional observations from a re-analysis of the deposited data

How the results depend on the processing

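Of 2688 values of named genes under 23 alternative fits, 2425 stayed on the same side of the threshold, among them 99 uncalled values that changed sign, 215 lost a call, 48 gained one and 0 called values changed sign. For Atg7-KO against cont., the 7 members called higher became 4 with glmTreat, 17 with library totals and 11 without the mice numbered 1. The 2 called lower became 1 with upper-quartile scaling or with at least 10 counts in every mouse, 0 with glmTreat or library totals, 4 with the GC offset, alone or with the replicate block, and 6 by adjusted p alone. The median log2 fold change became 0.088 with upper-quartile scaling, 0.060 with at least 10 counts, 0.571 with library totals, -0.125 with the GC offset, -0.107 with the GC offset and the replicate block and 0.070 without the mice numbered 1. For Atg7-KO;p62T352A against Atg7-KO, the 16 called higher became 9 with upper-quartile scaling, 8 with the length offset, alone or with the replicate block, 5 with glmTreat and 4 with library totals, where 16 were called lower and the median was -0.441. For Atg7-KO;p62T352A against cont., the 9 called higher became 3 with the length offset, 2 with it and the replicate block and 0 with glmTreat, DESeq2 called 1 lower, and the median was -0.004 with the length offset. With the replicate block alone, 7 were called higher and 2 lower, 16 and 5, and 6 and 0 (without Psma4, Psma7 and Psmb6) in the 3 comparisons. Mouse numbers were not taken as pairs, since deviations of same-numbered mice from their group means correlated from -0.202 to 0.321 over 9 pairs and not every mouse correlated best with its own number. Taken per transcript length, the mean ratio of Psmb8 to Psmb5 was 0.201, 0.413 and 0.313 and that of Psmb9 to Psmb6 0.0748, 0.249 and 0.069 in cont., Atg7-KO and Atg7-KO;p62T352A. The shares of all tested genes called under these alternatives, or with 1 mouse left out, are not given here. The cause of the changes was not tested.

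When 1 mouse was left out, members called in Atg7-KO against cont. ranged from 5 to 10 higher (5 without cont. mouse 2) and from 1 to 5 lower (5 without cont. mouse 2), with a median from -0.211 to 0.105. Between Atg7-KO;p62T352A and Atg7-KO they ranged from 8 to 16 higher and from 4 to 7 lower, with a median from 0.069 to 0.3, and between Atg7-KO;p62T352A and cont. from 1 to 11 higher and from 0 to 2 lower, with a median from 0.048 to 0.305. The mean ratio of Psmb8 to Psmb5 ranged from 0.387 to 0.503, 0.848 to 0.931 and 0.528 to 0.762, that of Psmb9 to Psmb6 from 0.105 to 0.141, 0.411 to 0.445 and 0.105 to 0.127, and that of Psmb10 to Psmb7 from 0.359 to 0.721, 0.448 to 0.503 and 0.526 to 0.691 in cont., Atg7-KO and Atg7-KO;p62T352A.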
